A study of Mus musculus with 9 samples.

Results

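The regions described here are 800 tiles of 1 kb that kept more than the usual share of their DNA methylation at 0.2 µM of a methylation inhibitor. They were chosen from 66788 tiles with at least 10 reads in each of 9 libraries. Of these tiles, 27597 lay on chromosomes 1 to 19 and held 10 to 39 listed CpGs, a medium density, where a listed CpG is one with an entry in at least 1 library. Among those, 10514 had a level of 80% or above in the pooled DMSO libraries, and the 800 also had a level of 60% or above in the pooled 0.2 µM libraries. The other 9714 of the 10514, with a 0.2 µM level under 60%, are called the comparison tiles. A tile's level is its methylated reads over all reads at its CpGs, in percent. DMSO and 0.2 µM values chose the tiles, so at these doses the levels are a description with no test.

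The measurement was reduced representation bisulfite sequencing (RRBS), which reads CpG methylation in the CpG-rich fragments released by a restriction enzyme. All libraries came from Abl.1, an immortalised female B cell line of a 129S1/SvImJ x CAST/EiJ F1 mouse, and the line is 1 clone. Cells received 1% DMSO, the solvent control, or 0.2, 2 or 10 µM 5-aza-2'-deoxycytidine (5-aza-dC), and live cells were recovered by density gradient on day 2. There were 2 DMSO libraries, 2 at 0.2 µM, 3 at 2 µM and 2 at 10 µM, labelled as library preparation replicates. Nothing says that they came from separate cultures, so p-values measure the spread between these libraries, which may be technical. Methylation files hold no RNA levels, so the B cell identity of the line was not checked against expressed markers. The reads at CpGs numbered between 8590777 and 16495423 per library. A level mixes both parental alleles and all cells of a culture, and fewer methylated cells and fewer methylated copies per cell cannot be told apart.

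In mammals, methyl groups on cytosine are placed mostly at CpG dinucleotides, and the maintenance enzyme DNMT1 copies them onto the new strand after replication. The drug 5-aza-dC is a cytosine analog that is built into newly made DNA and traps DNA methyltransferases there, so that methylation is diluted as cells divide. Because it acts through replication and is toxic, its effect on methylation depends on dose, cell division and survival. Promoters of germline genes, the silent copy of imprinted genes and many repeats are known sites of dense methylation in somatic cells.

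Some of the 800 tiles carried a gene's start site, and 4 promoters picked by hand from 8 in well covered tiles are shown to give the CpG pattern of germline and E-box promoters. The other 4, of Rims1, Atp9a, Ank2 and Bhmt2, hold no CACGTG E-box and are not germline genes, and the mean 2 µM levels of their tiles were 50.7%, 55.3%, 55.4% and 58.8%. Slc25a31 codes for an ADP/ATP carrier of the testis, Sycp1 for a structural protein of the synaptonemal complex that joins chromosomes in meiosis, Papolb for a testis poly(A) polymerase, and Slc1a6 for a glutamate transporter of neurons. Each sequence is the RefSeq promoter window in build GRCm38.p6, 250 bases before to 50 after the start, written 5′ to 3′ on the gene's strand. Capitals mark each CG that had an entry in at least 1 library. The windows are chr3:40708621-40708920 (plus strand), chr3:102936051-102936350 (minus strand), chr5:142530027-142530326 (minus strand) and chr10:78780246-78780545 (plus strand).
Slc25a31: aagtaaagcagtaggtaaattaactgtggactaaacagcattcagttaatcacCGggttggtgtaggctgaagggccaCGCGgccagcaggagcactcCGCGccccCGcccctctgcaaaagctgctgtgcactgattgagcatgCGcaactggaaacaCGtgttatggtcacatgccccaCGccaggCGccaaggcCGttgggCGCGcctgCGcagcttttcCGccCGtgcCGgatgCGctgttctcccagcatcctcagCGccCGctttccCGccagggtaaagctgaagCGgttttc
Sycp1: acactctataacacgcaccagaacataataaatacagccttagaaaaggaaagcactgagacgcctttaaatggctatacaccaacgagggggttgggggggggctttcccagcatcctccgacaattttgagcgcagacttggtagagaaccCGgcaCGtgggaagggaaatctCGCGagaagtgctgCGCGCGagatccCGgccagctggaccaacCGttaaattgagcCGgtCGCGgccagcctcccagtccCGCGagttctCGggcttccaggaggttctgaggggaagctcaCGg
Papolb: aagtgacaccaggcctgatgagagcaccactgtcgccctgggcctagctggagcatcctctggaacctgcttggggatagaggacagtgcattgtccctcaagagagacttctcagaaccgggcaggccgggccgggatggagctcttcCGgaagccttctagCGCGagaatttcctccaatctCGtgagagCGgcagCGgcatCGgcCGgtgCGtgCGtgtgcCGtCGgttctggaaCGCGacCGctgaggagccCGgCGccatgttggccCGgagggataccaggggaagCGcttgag
Slc1a6: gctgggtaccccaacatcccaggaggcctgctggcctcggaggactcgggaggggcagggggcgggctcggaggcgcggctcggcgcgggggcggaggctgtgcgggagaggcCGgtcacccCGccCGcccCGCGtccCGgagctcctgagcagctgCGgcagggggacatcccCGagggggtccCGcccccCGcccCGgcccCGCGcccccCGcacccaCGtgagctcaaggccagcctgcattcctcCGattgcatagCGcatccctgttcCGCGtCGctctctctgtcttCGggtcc

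In the Slc25a31 window 22 of 22 CGs were listed, and in the Sycp1 window 16 of 21, in the Papolb window 19 of 23 and in the Slc1a6 window 21 of 32. Over the Slc25a31 window alone, methylation was 93.6% and 100% in the DMSO libraries, 65.0% and 69.7% at 0.2 µM, 64.9%, 69.2% and 83.6% at 2 µM, then 96.4% and 80.7% at 10 µM, with 30 to 152 reads in each library. The 0.2 µM libraries lay below both DMSO libraries, and the 10 µM range overlapped the 2 µM range. For Sycp1 the window values were 92.9% in each DMSO library, 75.9% and 67.6% at 0.2 µM, 50.5%, 42.2% and 52.2% at 2 µM, then 63.3% and 66.2% at 10 µM. Here the 2 µM libraries were the lowest, with no overlap with those of any other dose. The rule favoured high 0.2 µM values, so in these windows the order of 0.2 and 2 µM is a description only. The Papolb window held 96.7% and 95.2% with DMSO, 69.1% and 64.3% at 0.2 µM, 60.1%, 45.7% and 56.9% at 2 µM, then 69.6% and 67.8% at 10 µM. As at Sycp1, the 2 µM libraries were the lowest. The Slc1a6 window had 87.5% and 82.9% with DMSO, 71.4% and 65.4% at 0.2 µM, 63.5%, 55.3% and 44.7% at 2 µM, then 77.0% and 83.3% at 10 µM. There the 10 µM library at 83.3% lay within the DMSO range and the other below it. Over the whole Slc1a6 tile the 10 µM libraries read 63.7% and 85.1%.

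Across the 59 whole RefSeq promoter windows that lay inside member tiles (52 tiles, 54 genes), the median number of CGs per window was 16. It was 12 in the 329 windows inside comparison tiles and 7 in all 31396 autosomal windows of the same length. The 3 motifs searched all read the same on both strands. The E-box CACGTG stood in 11 of the 59 windows (18.6%), in 6.69% of the comparison windows and in 7.14% of all windows, and it occurs in the Slc25a31, Sycp1 and Slc1a6 promoters printed above. The cyclic AMP response element TGACGTCA stood in 2 of the 59 (3.39%), against 1.22% and 1.83%. CCGG, the site cut by MspI, the enzyme commonly used for RRBS, stood in 44 (74.6%), against 81.8% and 53.5%. Windows from 1 gene can overlap, these are matches of letters only, and a motif with a CG is more likely in a window with more CGs.

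With DMSO the members and the comparison tiles had nearly the same mean level, and at 0.2 µM they differed most, as the rule sets. Over the 800 tiles the mean level was 91.3% and 91.3% in the DMSO libraries, 66.8% and 67.2% at 0.2 µM, 58.7%, 59.2% and 60.6% at 2 µM, then 74.3% and 73.7% at 10 µM. The 2 µM libraries lay below those at 10 µM with no overlap, while the place of 0.2 µM in this order was set by the rule. As means ± SD over libraries this is 91.3 ± 0.0079% (n = 2), 67.0 ± 0.262% (n = 2), 59.5 ± 0.968% (n = 3) and 74.0 ± 0.409% (n = 2). For the comparison tiles the means were 90.9%, 34.7%, 52.5% and 71.9%. The word resisting holds only relative to these tiles, since the members also stood below their DMSO level at 0.2 µM.

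**Figure D1:**
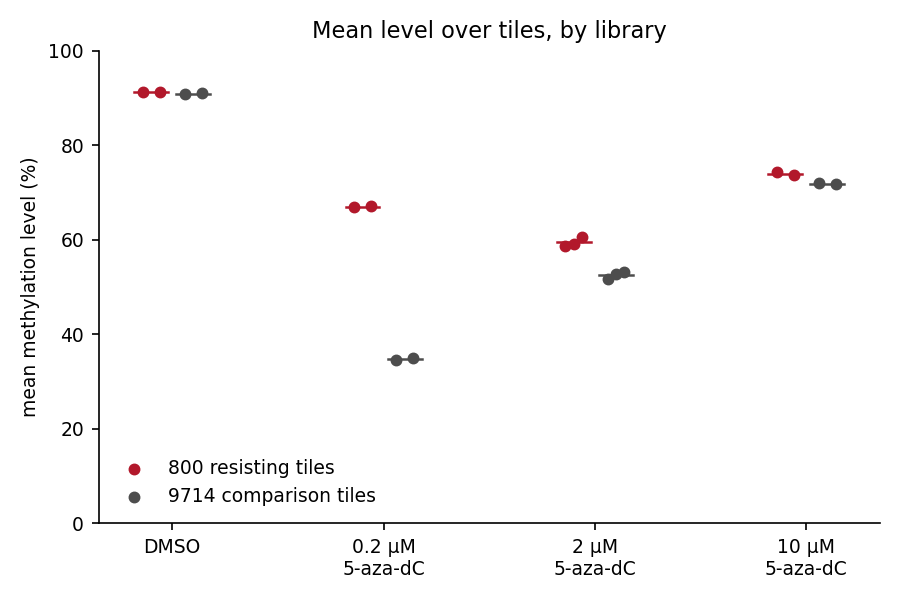
Mean methylation level (%, y axis) over the 800 resisting tiles (red) and the 9714 comparison tiles (grey) in each of the 9 libraries, by dose; each point is 1 library and each line the mean of a dose. At 0.2 µM the gap between the sets was set by the rule; they differ by 6.95 points at 2 µM and by 2.12 points at 10 µM.

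The 0.2 µM gap of 32.3 points was fixed by the choice of tiles, but the levels at 2 and 10 µM were not used in it. At 2 µM the members stood 6.95 ± 0.501 points above the comparison tiles (SD, n = 3), and at 10 µM 2.12 ± 0.347 points (SD, n = 2). Both differences were positive in every library and many times smaller than the gap at 0.2 µM. Of the 800 tiles, 351 were at 60% or above at 2 µM (43.9%), against 20.2% of the comparison tiles. At 80% or above there were 47 (5.88%), against 63 comparison tiles (0.649%). By 10 µM the shares at 80% or above were 34.1% and 26.0%. The lowest member stood at 16.4% and the highest at 97.8% at 2 µM, with a median of 58.5%.

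**Figure D2:**
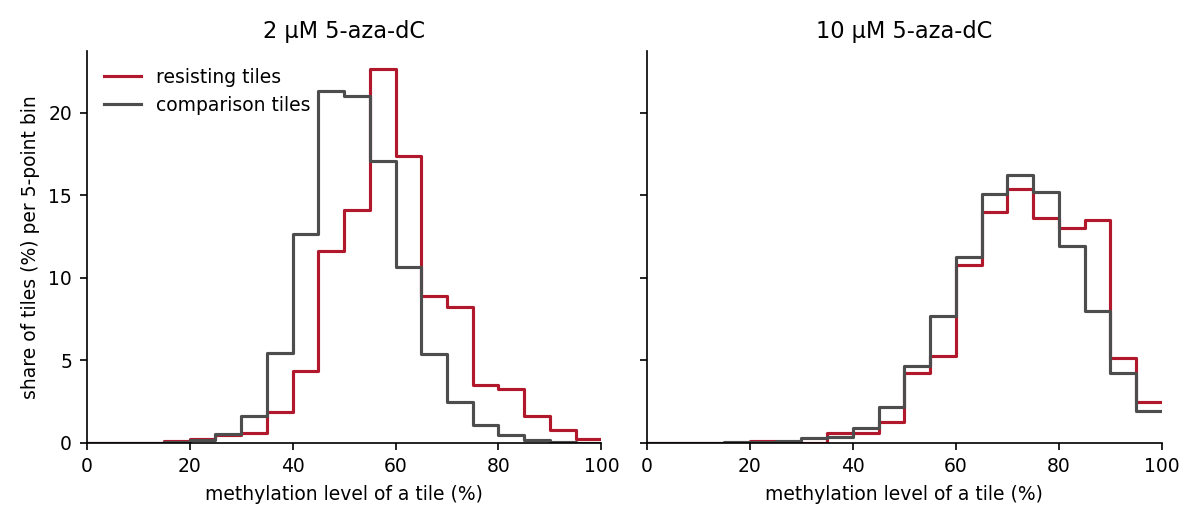
Share of tiles (%, y axis) in each 5-point bin of the methylation level (x axis) at 2 µM (left) and 10 µM (right), for the 800 resisting tiles (red) and the 9714 comparison tiles (grey). At 2 µM the red line is shifted to higher levels, with 43.9% against 20.2% of tiles at 60% or above, and at 10 µM the lines lie closer.

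Because the rule uses the 0.2 µM reads, tiles were also chosen on 1 replicate and read in the other. When the rule was applied to replicate 1 of DMSO and of 0.2 µM alone it chose 987 tiles, at 68.4% in that 0.2 µM replicate. In replicate 2 the same tiles stood at 58.0%, and 49.9% of them were at 60% or above, against 35.03% and 5.39% for the tiles not chosen. Choosing on replicate 2 gave 990 tiles at 67.6%, which stood at 58.5% in replicate 1. Read in the replicate that did not choose them, the 0.2 µM level was thus close to the 2 µM level of the same tiles, 58.3% and 58.4%. Among the 43 tiles chosen on replicate 1 with at least 100 reads in every library the level went from 69.5% to 66.3%, and 34 of the 43 stayed at 60% or above. For the 50 such tiles chosen on replicate 2 it went from 66.7% to 65.8%, and 34 of the 50 stayed at 60% or above.

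Precision varies between tiles in the same way. The median member had 141 pooled 0.2 µM reads, and at that depth a level of 60.3% has a 95% Wilson interval from 52.0% to 68.0%. Both 0.2 µM replicates were at 60% or above in 500 of the 800 tiles, and the lower Wilson bound of the pooled level was at 60% or above in 290. Such intervals leave out all but counting error, and PCR copies of a fragment count as reads. Just inside the threshold, tiles in Adad1, a testis RNA-binding protein gene, and in Fry stood at 60% pooled. Just outside, tiles at Ttll3, which codes for a tubulin glycylase, and in the uncharacterised Gm33031 stood at 59.9%. The Fry tile read 69.2% in one 0.2 µM replicate and 41.5% in the other, a gap far wider than its distance from the threshold.

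In 609 of the 800 tiles the 2 µM level was below the 0.2 µM level, against 10.9% of the comparison tiles. The rule used the 0.2 µM values, so nothing is read from this count or the next. Every 2 µM library was below both 0.2 µM libraries in 243 members (30.4%), against 1.80% of the comparison tiles. All were above both in 47 members (5.88%), against 58.2%. The 10 µM level was above the 2 µM level in 723 members (90.4%) and in 94.9% of the comparison tiles. In 364 members (45.5%) both 10 µM libraries were above all 2 µM libraries, against 61.1% of the comparison tiles.

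The contrast of 10 µM with 2 µM compares levels that did not enter the choice of members, though all 9 libraries, those that chose the tiles included, share its estimate of the spread. It was tested tile by tile with a binomial model whose dispersion was moderated with limma (Benjamini-Hochberg over all 66788 tiles, threshold 0.05). At 10 µM, 96 of the 800 members were higher than at 2 µM (12%), where 6.77% of all tiles tested and 18.6% of the comparison tiles were. The median change was 14.2 points in the members, 8.75 points over all tiles and 19.4 points in the comparison tiles. With more reads a larger share was called: 43 of 434 members with 10 to 29 reads in their least covered library, 41 of 317 with 30 to 99, and 12 of 49 with 100 or more. The same shares are not given for other tiles, so nothing about the members is read from this rise. A single member fell, where 0.0195% of all tiles did. These calls depend on how the spread was estimated. With limma on the log odds of the tile levels none of the 800 passed (172 higher at an unadjusted p under 0.05). Only 38 of all 66788 tiles were called higher with it. With the prior of the dispersion taken from all tiles no member passed either (251 unadjusted), and 0 of all tiles did. Leaving out 10 µM replicate 2 left 28 calls, 10 µM replicate 1 40, DMSO replicate 2 43 and DMSO replicate 1 50. The number of all tiles called higher fell with it, from 4523 to 1360, 1567, 2367 and 2500.

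Against DMSO the same test found 654 members lower at 2 µM (background 48.7% of all tiles, lower) and 248 lower at 10 µM (background 13.0%). Among the comparison tiles 92.5% and 28.1% were lower at these doses, beside 81.75% and 31% of the members. No member was higher at 2 µM (background 0.114%) or at 10 µM (background 0.108%), and none was at an unadjusted p under 0.05 either. These 2 contrasts share the DMSO libraries that chose the tiles, so nothing is read from them. Leaving out either DMSO replicate left far fewer calls at 10 µM, in the members and over all tiles alike.

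Among members past the threshold with a gene of the lists, the tile at Olfr18, an odorant receptor gene, was the most even (chr9:20322001-20323000, 73 to 323 reads per library). Its level was 91.0% and 93.2% with DMSO, 71.5% and 70.4% at 0.2 µM, 59.4%, 58.3% and 57.8% at 2 µM, then 84.1% and 88.3% at 10 µM. The doses did not overlap, and the 2 µM libraries lay close together. From 2 to 10 µM it rose by 27.7 points (adjusted p = 0.00302, limma-moderated binomial model), with 0.00349 to 0.106 over 14 alternatives. The tile in Lhx2, a LIM homeobox transcription factor gene (chr2:38354001-38355000), stood at 96.8% and 100% with DMSO, 69.2% and 56.4% at 0.2 µM, 59.5%, 69.5% and 60% at 2 µM, then 89.6% and 100% at 10 µM. There too both 10 µM libraries were above all those at lower drug doses. It rose by 31.8 points (adjusted p = 0.00956, 0.0109 to 0.108 over the alternatives).

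The 3 largest rises among the called tiles came from tiles with few reads. A tile outside genes at chr15:97486001-97487000 stood at 25%, 39.02% and 30% at 2 µM and at 80% and 100% at 10 µM, a rise of 58.7 points (adjusted p = 0.0142, 0.0155 to 0.112 over 13 alternatives). Another without a gene, at chr2:11105001-11106000, had 40.0%, 24.2% and 15.8% at 2 µM against 74.1% and 96.4% at 10 µM, up by 58.6 points (adjusted p = 0.00311, 0.00229 to 0.106). In both, the 2 µM and 10 µM libraries were far apart. At Dyrk2, a protein kinase gene, the 2 µM libraries were at 0%, 95.2% and 23.5% and the 10 µM libraries at 94.4% and 100% (adjusted p = 0.0368, up to 0.218 over the alternatives). That tile had as few as 13 reads in a library, and its groups overlapped. The only member that fell, outside genes at chr10:97329001-97330000, went from 58.3%, 46.8% and 58.3% to 26.9% and 14.8% (adjusted p = 0.0402), and it passed the threshold in 1 of 13 alternatives.

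The best covered members included tiles that kept a high level at every dose. One of 3 tiles that shared the highest minimum, 376 reads in the least covered library, lay outside genes at chr6:74363001-74364000, with 91.0% and 92.8% with DMSO, 71.6% and 70.9% at 0.2 µM, 71.8%, 65.8% and 65.3% at 2 µM, then 78.6% and 78.9% at 10 µM. Its 0.2 and 2 µM values overlapped, and both 10 µM libraries were above them. At chr11:81431001-81432000 in Asic2, which codes for a proton-gated sodium channel, the level was 92.9% and 91.9% with DMSO, 85.0% and 83.2% at 0.2 µM, 88.6%, 91.2% and 92.8% at 2 µM, then 91.4% and 94.2% at 10 µM, from 376 to 709 reads. The 0.2 µM libraries were the lowest, and those at 2 and 10 µM overlapped the DMSO range. A tile outside genes at chr1:33407001-33408000 was the highest at 2 µM among members with at least 30 reads in every library, with 94.3%, 91.2% and 93.4%, beside 91.9% and 91.4% with DMSO and 75.8% and 72.4% at 0.2 µM. Another at chr3:78338001-78339000 had 91.8%, 84.0% and 93.1% at 2 µM and 83.5% and 79.6% at 0.2 µM. The tiles of Asic2 and on chromosomes 1 and 3 had their lowest mean at 0.2 µM. A touching pair of tiles in Egflam, an extracellular matrix protein gene (chr15:7366001-7368000), was lower at 0.2 µM than at 2 µM as well: 74.9% and 72.6% at 0.2 µM and 83.1%, 82.2% and 82.7% at 2 µM in one, and 71.1% and 67.7% against 79.2%, 82.0% and 84.2% in the other.

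**Figure D3:**
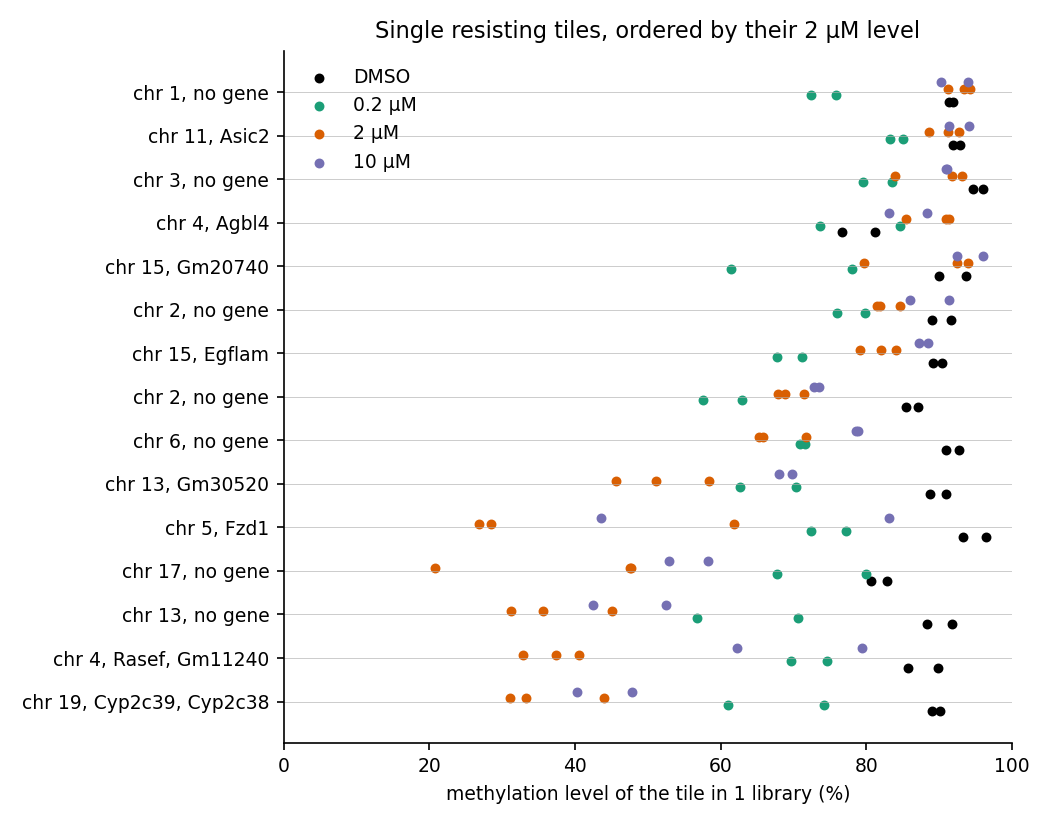
Methylation level (%, x axis) of 15 single resisting tiles, 1 per line and ordered by the 2 µM level; each point is 1 library, coloured by dose, and labels give the chromosome and the overlapping gene. The shown tiles are the 6 with most reads and the 5 highest and 5 lowest at 2 µM, with Asic2 in both sets; the 2 µM points run from above 90% in the top tile to under 50% in the bottom tile.

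At the other end stood tiles whose 2 µM level was far below their 0.2 µM level. The rule favoured high 0.2 µM values, so nothing is read from this gap. The tile at Cyp2c39 and Cyp2c38, cytochrome P450 genes in a cluster of close copies where read placement is uncertain, had 74.1% and 61.1% at 0.2 µM, 44.0%, 33.2% and 31.1% at 2 µM, then 40.3% and 47.8% at 10 µM. All 2 µM values were below both 0.2 µM values, and the 10 µM range overlapped that at 2 µM. At Rasef, a small GTPase gene, and Gm11240 (chr4:73791001-73792000) the levels were 74.7% and 69.6% at 0.2 µM, 40.6%, 32.9% and 37.4% at 2 µM, then 79.4% and 62.2% at 10 µM. This tile rose from 2 to 10 µM by 33.9 points (adjusted p = 0.0304, up to 0.205 over the alternatives). At Fzd1, a Wnt receptor gene, the 2 µM libraries disagreed, with 28.5%, 61.9% and 26.8%, and so did the 10 µM libraries, with 43.6% and 83.2%. A well covered tile of the uncharacterised Gm30520 (chr13:50021001-50022000, 376 to 892 reads) had 45.6%, 51.1% and 58.4% at 2 µM, then 69.8% and 68.0% at 10 µM, a rise of 17.2 points (adjusted p = 0.0260, up to 0.255).

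By their 2 µM level, 155 members were under 50%, 294 at 50 to 60%, 210 at 60 to 70%, 94 at 70 to 80% and 47 at 80% or above. From the lowest to the highest class the mean 10 µM level went from 67.5% to 87.2% and the mean 0.2 µM level from 65.6% to 71.6%, while the DMSO level stayed between 90.7% and 91.9%. These classes were cut on the 2 µM level itself, and the 10 µM level followed it. A gene overlapped 17 of the 47 tiles in the highest class and 89 of the 155 in the lowest. Of those 47, 8 had at least 100 reads in every library.

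More CpGs and more reads went with a larger share of members. Among tiles with the DMSO level required, members made up 5.09% of those with 10 to 14 listed CpGs and 25.7% of those with 35 to 39. They made up 6.70% of tiles with 10 to 19 reads in the least covered library, 6.17% with 20 to 29, 7.13% with 30 to 49, 11.98% with 50 to 99 and 20.7% with 100 or more. The median number of listed CpGs was 18 in members and 14 in comparison tiles. The separate parts of CpG number and reads in the share were not tested.

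**Figure D4:**
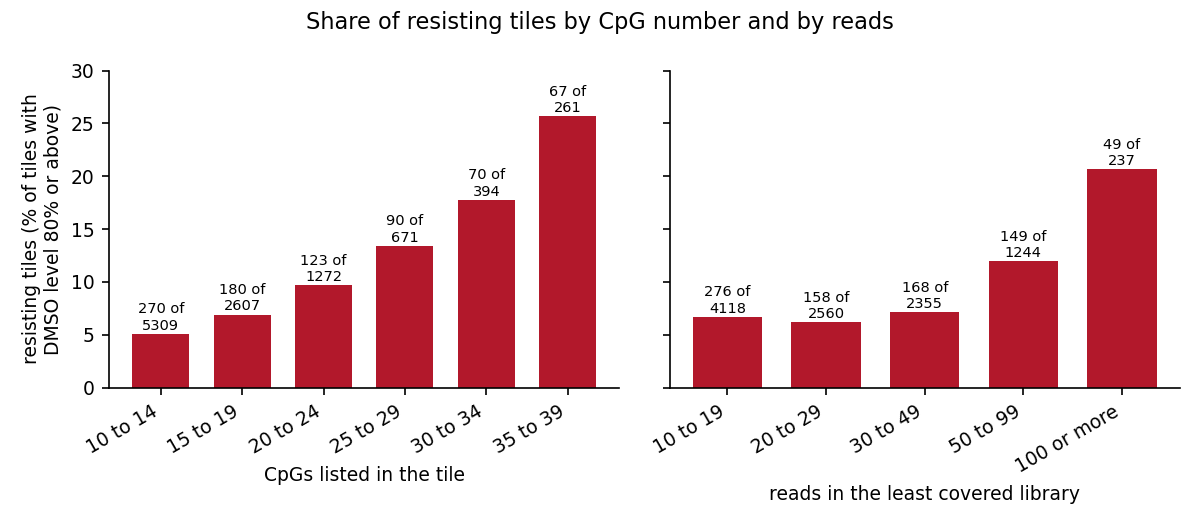
Resisting tiles as a share (%, y axis) of all autosomal tiles with 10 to 39 CpGs and a DMSO level of 80% or above, by listed CpGs (left) and by reads in the least covered library (right); numbers over the bars are members of tiles in the class. The share goes from 5.09% to 25.7% with CpG number, and reaches 20.7% at 100 or more reads.

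Levels of single CpGs at 0.2 µM are part of what the rule used, and are a description only. In 250 members with at least 5 CpGs of 10 or more pooled reads in each group, 202 (80.8%) had at least 4 in 5 of these CpGs at 50% or above at 0.2 µM. In the comparison tiles this was 7.44% of 1975. The median of the lowest CpG in a tile was 45.7% and of the highest 85.7% in members, against 20% and 55%. The median SD between the CpGs of a member was 14.3 points at 0.2 µM, 8.16 points with DMSO and 8.81 points at 2 µM. In the comparison tiles it was 11.6, 7.64 and 7.67 points in the same order. A wider spread at 0.2 µM was thus not particular to members.

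Members lay outside genes more often than the comparison tiles. A RefSeq gene overlapped 466 of the 800 (58.3%) and 76.6% of the comparison tiles, and a protein-coding gene 393 (49.1%) and 69.2%. Gene extents were taken from RefSeq GRCm38.p6, which matches the mm10 build of the files, while exons and introns were not analysed here. Among tiles outside genes 12.8% were members, and among those in genes 5.90%. Of the 52 tiles outside genes with at least 100 reads in every library, 19 were members, and their mean level at 2 µM was 71.2%, against 54.7% in the other 33 comparison tiles. The 30 members in genes at that depth had 59.3%, against 49.8%.

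A start site lay in 72 of the 778 members with start data (9.25%) and in 4.49% of the comparison tiles. Yet the median distance to the nearest start was also larger, 30.7 kb against 16.3 kb, and 25.3% of members lay more than 100 kb from one, against 11.3%. Protein-coding genes whose lower coordinate lay in the 1 Mb around a tile had a median of 6 for members and 14 for comparison tiles. Member tiles were thus found both at starts and in gene-poor stretches more often than the comparison tiles. The share of members among tiles with the DMSO level required ran from 2.72% on chromosome 11 to 12.9% on chromosome 3. The 72 tiles with a start had mean levels of 56.1% at 2 µM and 72.8% at 10 µM, beside 61.2% and 74.2% in the 334 outside genes.

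Tiles next to a member were high at 0.2 µM too. The 224 touching tiles that were not members themselves, and had a DMSO level of 80% or above, stood at 58.2% at 0.2 µM and 56.1% at 2 µM. Those touching a comparison tile stood at 34.9% and 53.3% (1833 tiles). Fragments that cross a tile's edge can put reads into both. At 2 to 3 kb the levels were 51.3% and 53.9% around members (98 tiles), against 31.9% and 52.4%, and at 4 to 5 kb 45.9% and 53.7% (62 tiles), against 30.9% and 51.5%. The excess at 0.2 µM thus became smaller with distance and was still seen at 4 to 5 kb, where the 2 µM levels were close.

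**Figure D5:**
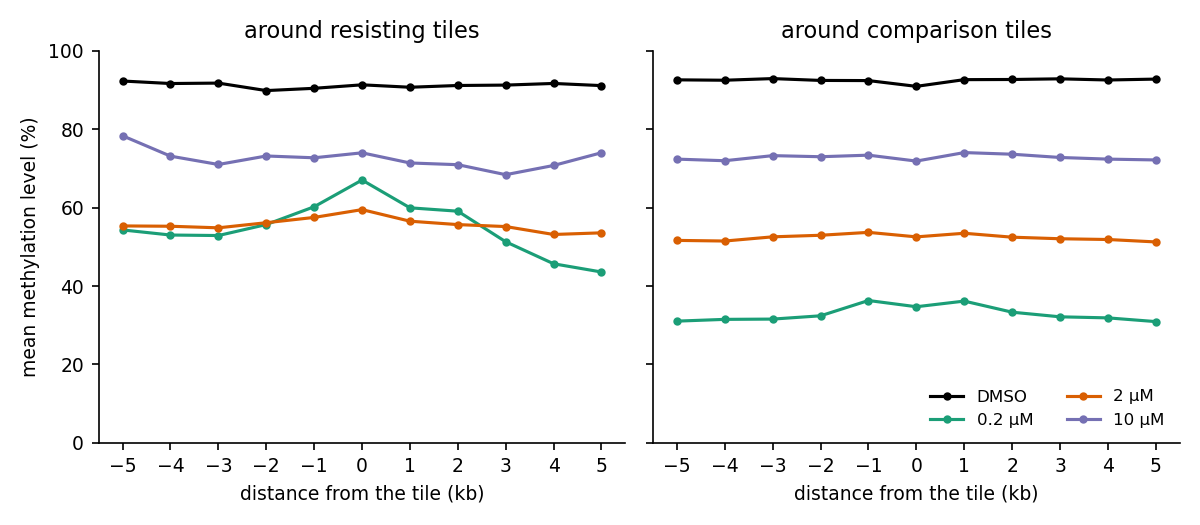
Mean methylation level (%, y axis) of tiles at 0 to 5 kb (x axis, distance from the tile) from resisting tiles (left) and comparison tiles (right), for DMSO, 0.2, 2 and 10 µM 5-aza-dC; points are means over all neighbouring tiles with enough reads and a DMSO level of 80% or above, members included. The 0.2 µM line peaks at resisting tiles (67.0%) and lies lower around comparison tiles (34.7% at the centre).

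Most members stood alone: 742 had no other member within 2 kb, 26 runs held 2 tiles and 2 runs held 3. Few had a touching tile that could be read: 135 members had one on the lower side with enough reads and the DMSO level, of which 24 were members, and 141 on the upper side, of which 24 were. One run of 3 lay in Plec, which codes for the cytoskeletal linker plectin, within chr15:76177001-76181000. In its first tile, with 39 CpGs and 133 to 304 reads, the levels were 58.4% and 62.4% at 0.2 µM, 61.1%, 59.2% and 64.6% at 2 µM, then 83.4% and 81.8% at 10 µM. Both 10 µM libraries exceeded all those at 0.2 and 2 µM (adjusted p = 0.0501 for 10 against 2 µM, limma-moderated binomial model, just over the threshold). In the other 2 tiles of Plec the 10 µM values overlapped those at 2 µM in one (69.2% and 83.7% beside 56.6% to 73.4%) and in the other as well (70.4% and 53.0% beside 47.6% to 60.6%). The second run of 3 lay in CK137956 and Csmd2, the latter a gene of a large membrane protein with CUB and sushi domains, at mean 2 µM levels of 61.0%, 54.2% and 55.6%.

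Of the gene lists, germline genes had 5 member tiles among 30 with the DMSO level required (800 of 10514 over all such tiles). Dazl, which codes for an RNA-binding protein needed for germ cells, stood at 71.2% and 60.8% at 0.2 µM, 53.4%, 54.8% and 45.7% at 2 µM, then 64.7% and 74.6% at 10 µM (chr17:50292001-50293000). Its 2 µM libraries were below those at 10 µM, and also below those at 0.2 µM, whose high values the rule favoured. At the start of Sohlh2, a transcription factor of early germ cell development, the levels were 64.7% and 67.9%, then 60.9%, 64.0% and 64.0%, then 75.2% and 60.3%. Here the 10 µM values spanned those at 2 µM. Neither passed the test of 10 against 2 µM, and nor did the start site tiles of Slc25a31 (mean 64.7% at 2 µM and 82.2% at 10 µM) and Sycp1 (48.9% and 65.7%). The median level over the 5 germline members was 51.3% at 2 µM and 69.6% at 10 µM, beside 52.0% and 71.7% over the 25 comparison tiles of the list.

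Imprinted genes, expressed from 1 parental copy, overlapped 4 members and 30 comparison tiles. At the overlap of Igf2r with its antisense RNA gene Airn the levels were 96.2% and 89.1% with DMSO, 80% and 77.4% at 0.2 µM, 54.6%, 78.8% and 63.9% at 2 µM, then 59.2% and 62.2% at 10 µM. The tile in Grb10, a growth factor receptor adaptor gene, had 78.5% and 78.7% at 0.2 µM, 48.0%, 60.6% and 48.3% at 2 µM, then 54.0% and 56.5% at 10 µM. In both the 10 µM libraries lay within the 2 µM range. The tile at Blcap and Nnat, with a start site, had 84.3%, 45.1% and 53.5% at 2 µM, then 74.3% and 77.8% at 10 µM. A tile of Sgce and Peg10 had 12 reads in its least covered library, and its 10 µM libraries read 65.7% and 97.1%. With DMSO the mean levels of the 4 tiles ran from 86.2% (Grb10) to 97.2% (Blcap and Nnat).

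Genes named Zfp, most of which code for zinc finger transcription factors, overlapped 22 members and 147 comparison tiles. In the best covered, Zfp316, the levels were 66.5% and 70.1% at 0.2 µM, 64.8%, 59.0% and 52.5% at 2 µM, then 74.6% and 71.7% at 10 µM. At the start of Zfp996 the 10 µM libraries read 59.9% and 92.4%, a wide gap, with 62.8%, 62.8% and 56.7% at 2 µM. Some of these genes, such as Zfp978 and Zfp981, belong to clusters of near-identical copies in which read placement is uncertain. The list medians at 2 and 10 µM were 58.9% and 74.6%, beside 53.1% and 75% over its comparison tiles.

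Homeobox developmental regulators had 7 members and 34 comparison tiles. Irx1, a patterning transcription factor gene, stood at 60.5% and 66.7% at 0.2 µM, 51.6%, 48.9% and 59.6% at 2 µM, then 73.3% and 76.8% at 10 µM, with both 10 µM libraries highest among the drug doses. Hoxb6 stood at 61.9% and 61.8%, then 53.0%, 60.5% and 57.6%, then 67.2% and 70.4%. For the clustered protocadherins, neuronal cell adhesion genes with overlapping transcription units, 6 tiles were members and 19 were not, all 6 within the Pcdhg cluster. Their median level was 56.7% at 2 µM and 72.0% at 10 µM, against 48.7% and 69.5%. Olfactory and vomeronasal receptors had 5 members and 15 comparison tiles, 3 of the 5 at vomeronasal pseudogenes. Their median level was 58.5% at 2 µM and 63.6% at 10 µM, against 56.8% and 72.7% over the comparison tiles. The 10 µM median was that of the tile at chr4:146509001-146510000, in Vmn2r-ps16 and Zfp981. Its 10 µM libraries read 100% and 27.3%, and its least covered library had 11 reads. Mean 10 µM levels were 56.1% at Vmn2r-ps15, 79.9% in the other Vmn2r-ps16 tile and 86.2% at Olfr18. Read placement is uncertain in the Zfp981 tiles, as said above. Whether the 10 µM level of the Olfr18 tile was typical of the 5 was not tested.

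Of B lineage genes, 1 tile was a member and 37 were comparison tiles. That tile lay in Plcg2, a phospholipase of B cell receptor signalling, had as few as 10 reads and read 63.3%, 26.8% and 100% at 2 µM. None of the 17 tiles at DNA methylation machinery genes was a member. The lists were given without a test, since they and the members were chosen with earlier results known.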

How the data were processed

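RRBS was measured in 9 libraries. The authors deposited 1 table per library with methylated and all read counts per CpG as a text entry, and a deposited score that equalled 1000 times the methylated share, rounded down, in every line. The build was mm10, per the submitters' processing notes, and no aligner or methylation caller is named in the sources used here. Lines of odd width (1 to 2 per library) and at repeated positions (18 to 68) were left out. Positions are printed 1-based.

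CpGs were summed in 1 kb tiles. Each tile was fitted with a binomial model over all libraries, with 1 level per dose, reads scaled to an effective number by the correlation of reads within a library, and a dispersion of at least 1 moderated with limma 3.58.1 (R 4.3.3, numpy 2.4.6, Python 3.11.15). The prior came from tiles at 10 to 90%, a choice made after seeing the data, once the prior from all tiles had given 0 calls for 10 against 2 µM. P-values were adjusted by Benjamini-Hochberg over 66788 tiles. The test was checked on simulated data. Those reads were drawn with the read correlation of the fitted model, so the check cannot tell which prior fits these libraries.

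The members and the gene lists were chosen with earlier results of these data known. Tiles were named by rule: the 6 with most reads in the least covered library, the 5 highest and 5 lowest at 2 µM with at least 30 reads in every library, the 3 largest called rises and falls, up to 3 runs of members within 2 kb, up to 4 tiles per gene list by reads, and 2 tiles on either side of the threshold. Printed promoters were chosen by hand among 8 in tiles with at least 50 reads in every library and at least 16 listed CGs. Start sites came from a RefSeq promoter table, in which 22 members had no entry on their chromosome and were not used for distances. Alternatives covered coverage, thresholds, tile borders, weighting, the dispersion prior, limma on tile levels, a replicate block and leaving out each library. For limma the tile levels were taken as log odds, with 0.5 added to the methylated and to the unmethylated reads.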

Additional observations from a re-analysis of the deposited data

How the results depend on the processing

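The number of members, 800, was 524 at a minimum of 20 reads per library and 366 at 30. It was 456 with the thresholds met in each replicate, 2065 at a 0.2 µM level of 50% and 211 at 70%. With an unweighted mean over CpGs read in every library the rule chose 1046 tiles, of which 645 were among the 800. Leaving out a library gave 805 to 1030 members. Their mean level at 2 µM was 60.7% with each replicate, 56.8% at 50%, 62.5% at 70%, and 58.3% and 58.4% when chosen on replicate 1 or 2; leaving out a library gave 58.4% to 59.9%. At 10 µM it was 72.7% and 72.8% with at least 20 and 30 reads, 72.2% and 75.1% at 50% and 70%, 73.4% and 73.4% on replicate 1 or 2, and 73.0% with tiles shifted by 500 bases, with 73.6% to 74.6% on leaving out a library. Members higher at 10 than at 2 µM numbered 96, then 0 with limma on tile levels, 0 with the prior from all tiles (added after seeing the data), and 28 to 87 on leaving out a library. The 1 member lower became 0 with limma, with the prior from all tiles, with at least 20 reads, with the replicate block and with libraries 1 and 2 without the block, and was 0 to 1 on leaving out a library. Members lower at 10 µM than with DMSO numbered 248, but 22 with the prior from all tiles and 2 to 278 on leaving out a library. Over all tiles the number higher at 10 than at 2 µM went from 4523 to 38 with limma and to 0 with the prior from all tiles. The number of all tiles lower at 10 µM than with DMSO went from 8701 to 663 with the prior from all tiles. It also fell when either DMSO library was left out. The cause of these differences was not tested.

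The replicate numbers of libraries pair nothing in the labels, and deviations of same-numbered libraries correlated between -0.0101 and 0.00592. A fit with the number as a replicate block over libraries 1 and 2 gave 93 members higher at 10 than at 2 µM. Over all tiles this fit gave 3958 higher. Without the block there were 87 members higher, and 3779 over all tiles. With the block, 636 and 275 members were lower at 2 and 10 µM than with DMSO. Over all tiles 30925 and 9504 were lower in these contrasts, so nothing particular to the members is read from these counts. Tiles with 10 to 29 reads limit what can be called, since at 10 reads a level of 60% has a 95% Wilson interval from 31.3% to 83.2%.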
